A study of Mus musculus with 18 samples.

Results

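The Slc25 genes encode the mitochondrial carriers, a family of transporters that sit mostly in the inner membrane of mitochondria. Their transcripts were read here in 2 tissues, quadriceps muscle and white fat, from wild-type males of the inbred strain DBA/2J made obese by diet. Members were the gene symbols starting with Slc25a whose transcript abundances, summed per symbol, reached 1 unit of TPM, an abundance scaled for transcript length and for the library total, in at least 3 libraries of a tissue. Slc25a20 and names with -ps were left out beforehand, whatever their level, and are in no count or sum of members. The rule found 38 members among 33641 genes, of which 36 passed in muscle and 38 in adipose tissue. RNA was sequenced in 18 libraries, 1 per tissue from each of 9 mice. At an age of about 20 weeks, with 12 weeks of high-fat feeding behind them, all mice began injections into the peritoneum, and the same feeding went on through the 12 weeks of treatment. Per tissue there were 3 vehicle libraries (vehicle injected daily), 3 from prednisone once a week and 3 from prednisone once a day, each dose being 1 mg/kg. Prednisone is a synthetic glucocorticoid, and the organs were collected 24 hours past the final dose. The labels name no adipose depot, and they list 3 adipose libraries for daily prednisone, 1 more than the design text counts.

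The inner mitochondrial membrane lets few charged molecules through, so each carrier exchanges or imports its own substrates. The ADP/ATP carriers and the phosphate carrier feed ATP synthase and export its product, and other members move citrate, malate, amino acids, iron, coenzyme A or NAD. Muscle relies on carriers for ATP supply, and white fat cells use the citrate carrier to bring carbon for fatty acid synthesis into the cytosol. Several steps have paralogous genes with their own tissues of use, such as Slc25a4, the ADP/ATP carrier of heart and muscle, and Slc25a5, the ADP/ATP carrier of many other tissues.

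The tissue labels matched their markers in every library. Ckm (muscle creatine kinase) ranged from 15453 to 19127 TPM in muscle and from 13.2 to 176 TPM in adipose tissue, and Adipoq, the fat cell hormone adiponectin, at 2877 to 3757 TPM in adipose tissue and 40.5 to 120 TPM in muscle. Mitochondrially encoded transcripts made up 27.5% to 31.3% of a muscle library and 12.9% to 16.9% of an adipose library. Adipose libraries weekly 2, weekly 3 and daily 2 held more muscle transcripts than the other 6, with all 14 muscle markers above their levels there. Within a group, the library numbered 3 lay between its other libraries for 42.3% to 55.8% of the genes averaging 10 TPM or more, and for 36.8% to 52.6% of the members, where each of 3 libraries taking the middle equally often would give 33.3%. The labels list these libraries as separate samples, and whether they are independent of the other libraries was not tested. Counts of called members are therefore also given without the third libraries, since the SE and n = 3 take them as separate mice. These are bulk tissues, in which fewer cells of a type and less RNA per cell cannot be told apart.

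Slc25a3, the phosphate carrier (chr10:91116574-91124059, minus strand, GRCm38), was the most abundant member in adipose tissue and the second in muscle, and the tissues used different versions of 1 exon, the third. The exon of transcript Slc25a3-206 (chr10:91122207-91122331, 125 bases) and that of Slc25a3-201 and Slc25a3-203 (chr10:91121922-91122043, 122 bases) lay next to each other, and 0 annotated transcripts held both. They are shown because they carry the clearest difference in the kind of transcript between the tissues. Capitals mark the bases that differ between them in a global alignment, gaps included, where 77 of 122 aligned bases (63.1%) were identical. The letters are those of the GENCODE M21 transcripts on GRCm38, read 5′ to 3′ on the transcript's strand, and not those of DBA/2J mice.
Exon of Slc25a3-206: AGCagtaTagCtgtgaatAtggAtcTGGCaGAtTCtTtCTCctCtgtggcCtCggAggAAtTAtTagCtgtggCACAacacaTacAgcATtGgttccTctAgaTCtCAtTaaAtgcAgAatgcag
Exon of Slc25a3-201: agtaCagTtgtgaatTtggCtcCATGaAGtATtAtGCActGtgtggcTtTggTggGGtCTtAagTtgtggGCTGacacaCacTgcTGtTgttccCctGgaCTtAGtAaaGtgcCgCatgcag

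In muscle Slc25a3-206 took nearly all of the TPM of the transcripts holding either exon. It took 93.7%, 94.1% and 93.4% in the vehicle libraries, 93.9%, 93.7% and 93.6% in the weekly libraries, and 92.6%, 93.6% and 92.8% in the daily libraries. In adipose tissue it took 2.17%, 0.818% and 1.71% in vehicle, 1.74%, 7.07% and 3.90% in weekly, and 1.75%, 3.43% and 2.37% in daily libraries. The tissues did not overlap. The highest adipose shares, 7.07%, 3.90% and 3.43%, came from the libraries with the most muscle transcripts, where Ckm stood at 176, 130 and 109 TPM against 13.2 to 35.0 TPM in the other 6. In muscle the exon of Slc25a3-206 was carried at 616 to 657 TPM after vehicle, 549 to 573 TPM after weekly and 502 to 531 TPM after daily prednisone, and these ranges did not overlap. The coding sequences of Slc25a3-206 and Slc25a3-201 are 1074 and 1071 bases long.

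**Figure D1:**
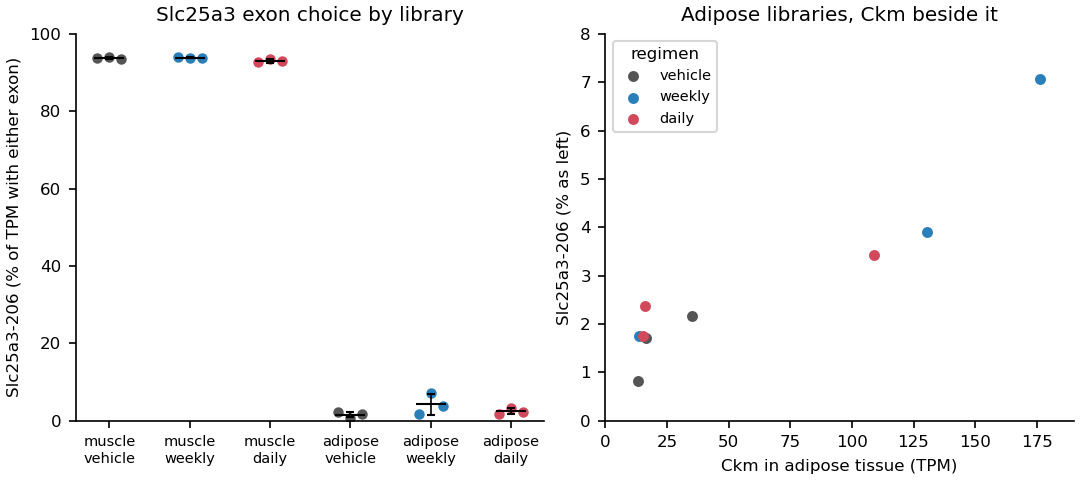
Left, share of Slc25a3-206 (percent of the TPM of the 3 transcripts holding either exon) in each of the 18 libraries, with bars for mean and SD of 3 libraries per group. Right, the same share in the 9 adipose libraries against Ckm (TPM). Muscle libraries lie between 92.6% and 94.1%, adipose libraries between 0.818% and 7.07%, and the 3 adipose libraries with the highest Ckm have the highest shares.

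Of the 36 members tested in both tissues, 32 had the same most abundant transcript in each, and Slc25a14, Slc25a35 and Slc25a42 differed beside Slc25a3. For Slc25a42, the coenzyme A carrier, Slc25a42-201 took a median of 61.1% of the gene's TPM in muscle and 11.9% in adipose tissue, where Slc25a42-202 took 62.1%. The pair differ by a 66-base intron (chr8:70185226-70185291) outside the coding sequence, which is 954 bases long in both. Slc25a35, a carrier with no settled substrate, was read in adipose tissue mostly as Slc25a35-202 (median 83.9%), which has 12 more bases at the start of the third exon. In muscle Slc25a35-201 and Slc25a35-202 averaged 2.91 and 2.73 TPM, so neither led clearly there. The start of that exon (chr11:68971184-68971213, plus strand, GENCODE M21 on GRCm38) is shown with the 12 added bases in capitals.
Start of the third exon of Slc25a35-202: GGCATGTTTCAGgcactaaccgagattggc

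Slc25a14, a relative of the uncoupling proteins, was low (0.822 to 1.90 TPM in muscle) and its transcript shares moved widely between libraries. Slc25a12, which exchanges aspartate for glutamate, was read in both tissues mainly as Slc25a12-207, a transcript annotated as a target of nonsense-mediated decay, which took 58.6% to 65.6% of its TPM in muscle. The coding transcript Slc25a12-206 took a median of 12.2% there. The values of Slc25a12 below sum all its transcripts.

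In vehicle mice Slc25a12, Slc25a4 and Slc25a11 were among the members higher in muscle, and Slc25a10, Slc25a1 and Slc25a5 among those higher in adipose tissue. Not all transport classes moved as a whole. Of 6 carriers of adenine nucleotides and phosphate 2 were called higher in muscle and 4 lower, while both of the 2 carriers tied to glutathione were called lower. Each mouse's muscle value minus its adipose value was tested with limma on log2(TPM + 1), and calls were made at a Benjamini-Hochberg adjusted p under 0.05. Of 36 members 8 were called higher in muscle and 24 lower, where 87% of the 11737 genes tested were called in this comparison. TPM is a share of each library, and the median of all genes lay at -0.88 on this scale. With TMM scaling, which centres the bulk of genes, that median was 0.07, 16 members were called higher and 14 lower, and 10 changed direction. Only directions that held under both scalings are named for the tissues here: 8 members were called higher in muscle under both and 14 lower. The carriers tied to glutathione were among the latter, Slc25a39 at -1.16 and Slc25a40 at -0.53 with TMM scaling. Slc25a25, 1 of the 4 adenine nucleotide and phosphate carriers called lower, was not called with TMM scaling (-0.23, limma adjusted p = 0.614) or without vehicle mouse 1 (0.0915).

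Slc25a4 (chr8:46206797-46211284, minus strand) was the most abundant member in muscle, with 2615, 2573 and 2424 TPM in the vehicle libraries against 229, 232 and 239 TPM in adipose tissue. It made up 60.3% to 62.4% of the family's TPM in the 9 muscle libraries and 6.59% to 8.52% in adipose tissue. Slc25a5 (chrX:36795651-36798807, plus strand) ran the other way, with 53.5, 54.7 and 51.2 TPM in muscle and 433, 406 and 424 TPM in adipose tissue. The tissues did not overlap for either gene, and the log2 differences of muscle over adipose tissue were 3.44 ± 0.10 and -2.96 ± 0.07 (SE, 3 mice, limma, with TMM 4.53 and -1.87). The 300 bases around their start sites, from 250 before to 50 after, are shown because these paralogs parted by tissue and, below, by regimen. They are from RefSeq on GRCm38.p6, the promoter of Slc25a4 at chr8:46211013-46211312 (minus strand) and that of Slc25a5 at chrX:36795347-36795646 (plus strand), and capitals mark the letters GGGCGG on either strand.
Promoter of Slc25a4: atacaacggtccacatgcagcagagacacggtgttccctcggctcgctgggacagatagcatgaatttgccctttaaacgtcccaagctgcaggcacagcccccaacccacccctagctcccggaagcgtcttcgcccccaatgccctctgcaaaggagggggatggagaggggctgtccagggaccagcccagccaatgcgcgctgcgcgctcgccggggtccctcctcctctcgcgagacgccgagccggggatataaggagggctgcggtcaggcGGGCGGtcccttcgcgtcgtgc
Promoter of Slc25a5: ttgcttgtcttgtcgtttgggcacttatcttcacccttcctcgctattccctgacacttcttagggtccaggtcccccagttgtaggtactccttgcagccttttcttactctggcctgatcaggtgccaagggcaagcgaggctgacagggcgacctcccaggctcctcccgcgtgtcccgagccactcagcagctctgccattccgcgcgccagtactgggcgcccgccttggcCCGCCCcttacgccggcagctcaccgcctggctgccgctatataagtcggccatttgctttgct

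Of the 38 members 29 had a promoter in the RefSeq table. GGGCGG, searched on both strands and so also as CCGCCC, was in 27 of the 29 and in 35.7% of all 32851 promoters of this length. CACGTG was in 7 of the 29 and in 7.15% of all promoters. AAGGTCA, searched on both strands, was in 1, that of Slc25a34, and in 4.72% of all. AGAACA was in 3, those of Slc25a17, Slc25a31 and Slc25a45, and in 19.0% of all. Members were counted by gene symbol, while the shares are over single promoters of all genes, read in these tissues or not. The counts and shares thus differ in unit and set, and no enrichment is read from them. No motif overlapped another in its letters, and a match describes these letters only.

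The largest difference toward muscle was that of Slc25a12 (chr2:71271063-71367749), with 174, 194 and 174 TPM in muscle and 5.06, 6.13 and 6.18 TPM in adipose tissue, a log2 difference of 4.74 ± 0.13. Slc25a13, which does the same exchange in liver, stayed under the filter in muscle (0.261 to 0.675 TPM). Slc25a34, a carrier with no settled substrate, had 13.9, 15.9 and 13.9 TPM in muscle against 1.52, 1.13 and 1.69 TPM, a difference of 2.67 ± 0.12. Slc25a11, which exchanges malate for 2-oxoglutarate in the malate-aspartate shuttle, had 247, 260 and 239 TPM against 87.2, 91.9 and 87.7 TPM, a difference of 1.47 ± 0.07. The other members called higher in muscle were Slc25a29 (basic amino acids) at 1.17, Slc25a27 (an uncoupling protein relative) at 1.08, Slc25a3 at 0.72 and Slc25a42 at 0.20. The last was at 0.11 and not called without vehicle mouse 1 (limma adjusted p = 0.208), and it was not called without the third libraries (0.09) or the mice with the most muscle transcripts in adipose tissue (0.0544), while TMM scaling gave 1.27.

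The largest differences toward adipose tissue were those of Slc25a10, the dicarboxylate carrier, and Slc25a1, the citrate carrier. Slc25a10 (chr11:120491840-120499187) had 20.6, 15.4 and 16.3 TPM in muscle and 385, 424 and 401 TPM in adipose tissue, a log2 difference of -4.46 ± 0.16. Slc25a1 (chr16:17925223-17928219) had 23, 18.7 and 21.1 TPM in muscle and 378, 394 and 395 TPM in adipose tissue, a difference of -4.15 ± 0.18. After Slc25a5 came Slc25a17, a carrier of peroxisomes, at -2.59, Slc25a23, an ATP-Mg/phosphate carrier, at -2.44, and Slc25a39, tied to glutathione, and Slc25a45, both at -2.25. By level, the 5 most abundant members in muscle were Slc25a4, Slc25a3, Slc25a11, Slc25a12 and Slc25a5. In adipose tissue they were Slc25a3, Slc25a5, Slc25a1, Slc25a10 and Slc25a39, and the vehicle values of Slc25a3 (416 to 437 TPM) and Slc25a5 (406 to 433 TPM) overlapped, as did those of Slc25a1 (378 to 395 TPM) and Slc25a10 (385 to 424 TPM).

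**Figure D2:**
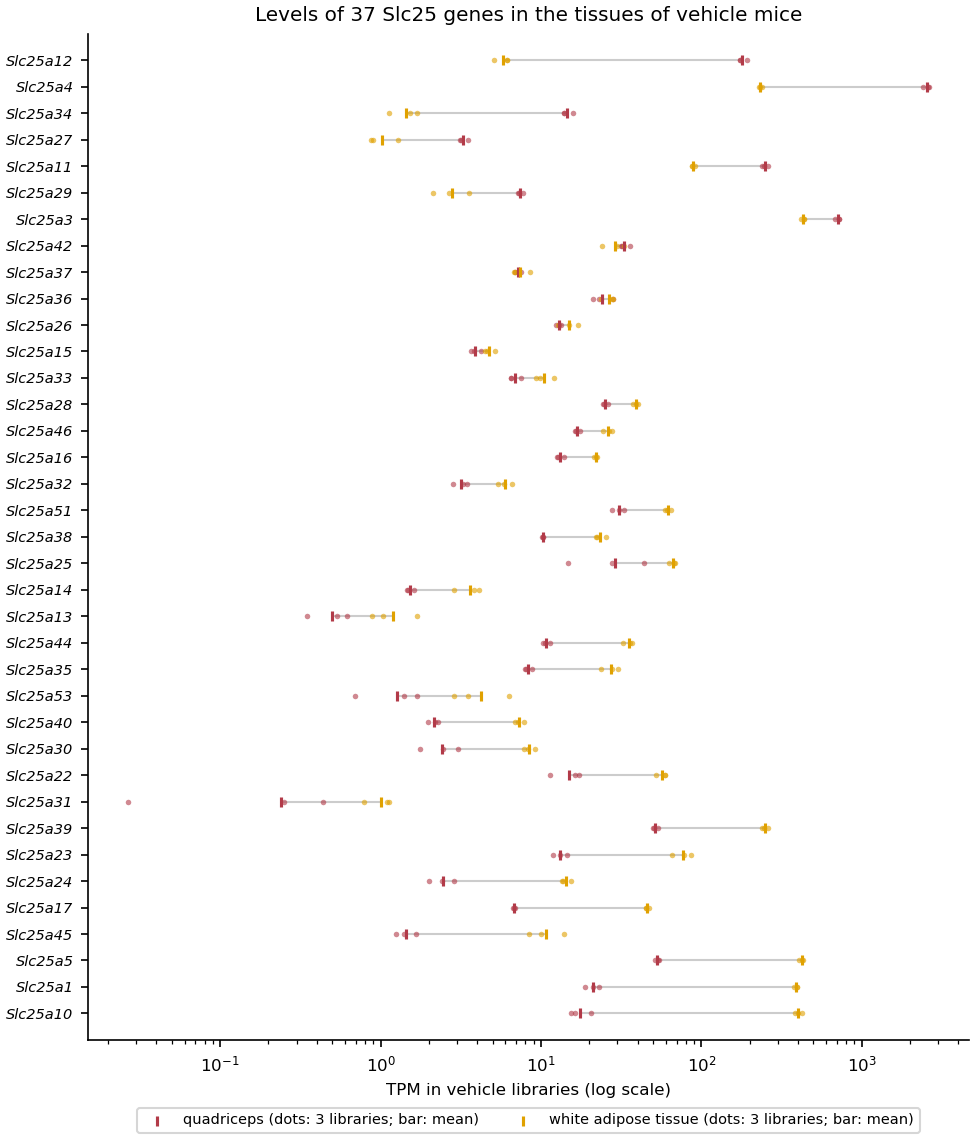
TPM (log axis) of 37 members in the 3 vehicle libraries of quadriceps (red) and of white adipose tissue (yellow), ordered by the ratio of the means, with dots for libraries and vertical bars for means. Slc25a12 and Slc25a4 stand apart toward muscle and Slc25a10, Slc25a1 and Slc25a5 toward adipose tissue, while 10 members between these ends change direction with TMM scaling.

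Members at the edge of the filter were Slc25a31, the ADP/ATP carrier of testis, which reached 1 TPM in 4 adipose libraries (0.595 to 1.39 TPM), and Slc25a53, which did so in 6 muscle libraries. Just outside were Slc25a43 and Slc25a48, each with 2 adipose libraries at 1 TPM or more and maxima of 1.34 and 1.20 TPM, and Slc25a47 with 1. Slc25a2, Slc25a18, Slc25a21, Slc25a41 and Slc25a54 did not exceed 0.316 TPM in any library.

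In muscle, daily prednisone compared with vehicle came with lower transcript levels of carriers from several transport classes. Of 36 members 11 were called lower and 1, Slc25a5, higher, where 13.7% of the 12246 genes tested were called. The median of the members was -0.22 on the log2 scale and that of all genes -0.09, and 29 of 36 members had a negative value. With TMM scaling 6 members were called lower and 1 higher, with medians of -0.14 and -0.01, and without the third libraries 0 were called. The share of all genes called in these other fits is not given here. Their counts, also those of classes and lists below, are thus not read against the 13.7%. The summed TPM of the family was 4007 to 4270 after vehicle, 3744 to 3778 after weekly and 3422 to 3631 after daily prednisone, with no overlap between the regimens. Without Slc25a4 it was 1583 to 1697, 1434 to 1492 and 1317 to 1366 TPM. As a share of the TPM of nuclear genes the family took 0.563% to 0.622%, 0.528% to 0.549% and 0.474% to 0.504%.

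Both carriers that serve ATP synthase most directly fell. Slc25a4 had 2615, 2573 and 2424 TPM after vehicle, 2274, 2299 and 2310 TPM after weekly, and 2074, 2265 and 2155 TPM after daily prednisone. All daily libraries lay below all vehicle libraries, and the daily change was -0.23 ± 0.05 (SE, n = 3 per group, limma adjusted p = 0.0139). Slc25a3 had 726, 722 and 681 TPM after vehicle, 633, 627 and 604 TPM after weekly, and 572, 588 and 559 TPM after daily prednisone. Its 3 groups did not overlap, and it fell by 0.31 ± 0.04 after daily prednisone (limma adjusted p = 0.00385). The call of Slc25a4 was lost with TMM scaling (-0.14, adjusted p = 0.238) and without daily library 3 (adjusted p = 0.0639), while that of Slc25a3 held under both.

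Slc25a5, the other ADP/ATP carrier, rose in the same libraries. It had 53.5, 54.7 and 51.2 TPM after vehicle, 49.9, 53.6 and 52.5 TPM after weekly, and 65.3, 58.1 and 62.0 TPM after daily prednisone. All daily libraries lay above all others, and it rose by 0.21 ± 0.06 (limma adjusted p = 0.0381, with TMM 0.30 and 0.0187). The call missed the threshold without any 1 of the vehicle libraries, weekly library 3 or daily libraries 1 or 3 (adjusted p from 0.0643 to 0.124). It also did so without mitochondrial genome transcripts (0.0789), with no filter (0.0551), with only the groups compared (0.0703) and with a replicate block (0.0742). The ratio of Slc25a4 to Slc25a5, which does not depend on the scaling of a library, was 48.8, 47.0 and 47.3 after vehicle, 45.6, 42.9 and 44.0 after weekly, and 31.8, 39.0 and 34.8 after daily prednisone. The regimens did not overlap. Every daily library was already below vehicle for Slc25a4 and above it for Slc25a5, so the daily ratio had to separate. Its two-sided exact permutation p of 0.1 against vehicle was thus fixed and is no separate support. The weekly ratio also gave 0.1, the smallest p that 3 against 3 libraries allow. In adipose tissue the ratio was 0.502 to 0.615 over all 9 libraries.

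Marker lists of other cell types were read beside Slc25a5 in muscle. The summed TPM of 10 macrophage markers was 213, 310 and 249 after vehicle and 561, 365 and 441 after daily prednisone, and 4 of the 10 were above all vehicle libraries in every daily library, with 0 of them at 0. The daily library with the highest macrophage sum also had the highest Slc25a5, and the one with the lowest had the lowest. The daily libraries had the same order for 10 fat cell markers, whose sums overlapped (2067, 1586 and 1802 TPM after vehicle and 2030, 885 and 1294 TPM after daily prednisone). They had it too for 6 stromal markers, which also overlapped (494, 651 and 581 TPM after vehicle and 822, 586 and 669 TPM after daily prednisone). Of the 6 stromal markers 2 were above and 0 below all vehicle libraries in every daily library, and of the 10 fat cell markers 0 and 1. The 5 mesothelial markers summed to 1.07 to 1.58 TPM after vehicle and 2.03 to 4.43 TPM after daily prednisone, without overlap and with 1 of them at 0. Only 1 of the 5 was above all vehicle libraries in every daily library, and 3 stayed under 1 TPM in all muscle libraries. In the vehicle libraries none of the macrophage, fat cell and stromal sums followed the order of Slc25a5. Of 6 endothelial markers 0 were above and 2 below all vehicle libraries in every daily library. The same counts held for 7 red cell markers, and of 8 lymphocyte markers, all under 1 TPM, 0 were above and 1 below. The share of all genes lying above or below vehicle in this way was not counted. The part of these cells in the change of Slc25a5 was not tested.

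Of the carriers of amino acids 4 of 6 members were lower, beside the 13.7% of all genes called, with a median of -0.34. With TMM scaling 2 of 6 were lower. Slc25a29, the carrier of basic amino acids (chr12:108825873-108835883), had 7.70, 7.23 and 7.28 TPM after vehicle and 4.10, 5.56 and 4.85 TPM after daily prednisone. It fell by 0.53 ± 0.09 (limma adjusted p = 0.00876), the largest change among the called members. Slc25a12 had 174, 194 and 174 TPM after vehicle, 167, 151 and 153 TPM after weekly, and 123, 138 and 130 TPM after daily prednisone. Its groups did not overlap, and it fell by 0.47 ± 0.07 after daily prednisone (limma adjusted p = 0.00397). Slc25a38, the glycine carrier used in heme synthesis, had 10.3, 10.4 and 10.2 TPM after vehicle, 8.03, 8.64 and 8.14 TPM after weekly, and 6.88, 7.76 and 8.27 TPM after daily prednisone. It fell by 0.39 ± 0.07 after daily prednisone, a call lost with TMM scaling (adjusted p = 0.0748, limma). Slc25a44, the carrier of branched-chain amino acids, had 11.4, 10.6 and 10.3 TPM after vehicle and 8.58, 9.23 and 8.53 TPM after daily prednisone, a fall of 0.27 ± 0.07. That call was lost without any 1 of 6 libraries and with TMM scaling (adjusted p = 0.159, limma).

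The members of this class that were not called were Slc25a22, a glutamate carrier, at -0.30 and Slc25a15, the ornithine carrier, at 0.02. For the malate-aspartate shuttle both inner membrane carriers read in muscle were lower. Slc25a11, the second of them, had 247, 260 and 239 TPM after vehicle, 240, 228 and 225 TPM after weekly, and 202, 217 and 204 TPM after daily prednisone. It fell by 0.26 ± 0.05 after daily prednisone, a call lost with TMM scaling (adjusted p = 0.132, limma). Slc25a10 and Slc25a1, of the same class of organic acid carriers, stood at -0.49 ± 0.19 and -0.36 ± 0.21 and were not called.

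Among carriers of nucleotides and cofactors 2 of 9 members fell (1 of 9 with TMM scaling), beside the 13.7% of all genes called. Slc25a51, the NAD carrier (chr4:45395923-45408766), had 33.1, 30.7 and 27.9 TPM after vehicle, 30.3, 23.9 and 25.0 TPM after weekly, and 22.0, 22.5 and 22.0 TPM after daily prednisone. All daily libraries lay below all others, and it fell by 0.44 ± 0.09 (limma adjusted p = 0.0152). Slc25a42 had 31.6, 35.8 and 32.1 TPM after vehicle and 26, 28.9 and 27.5 TPM after daily prednisone, a fall of 0.26 ± 0.07 (limma adjusted p = 0.0325) that was lost under TMM scaling and when most of the single libraries were left out. Slc25a33 and Slc25a36, carriers of pyrimidine nucleotides, stood at 0.02 and -0.08.

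Of the iron importers, Slc25a28 (mitoferrin 2) fell in muscle. It had 24.7, 26.3 and 24.5 TPM after vehicle, 20.2, 21.7 and 20.5 TPM after weekly, and 19.7, 19.9 and 18.3 TPM after daily prednisone. The groups did not overlap, and the daily change was -0.37 ± 0.06 (limma adjusted p = 0.00613). Slc25a37 (mitoferrin 1) stood at 6.91 to 7.47 TPM after vehicle and 6.74 to 7.03 TPM after daily prednisone, a change of -0.06 with a 95% interval of -0.21 to 0.09. Slc25a34 had 13.9, 15.9 and 13.9 TPM after vehicle, 14.4, 14.4 and 14.5 TPM after weekly, and 11.4, 11.1 and 11.0 TPM after daily prednisone, a fall of 0.35 ± 0.06 (limma adjusted p = 0.0099).

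**Figure D3:**
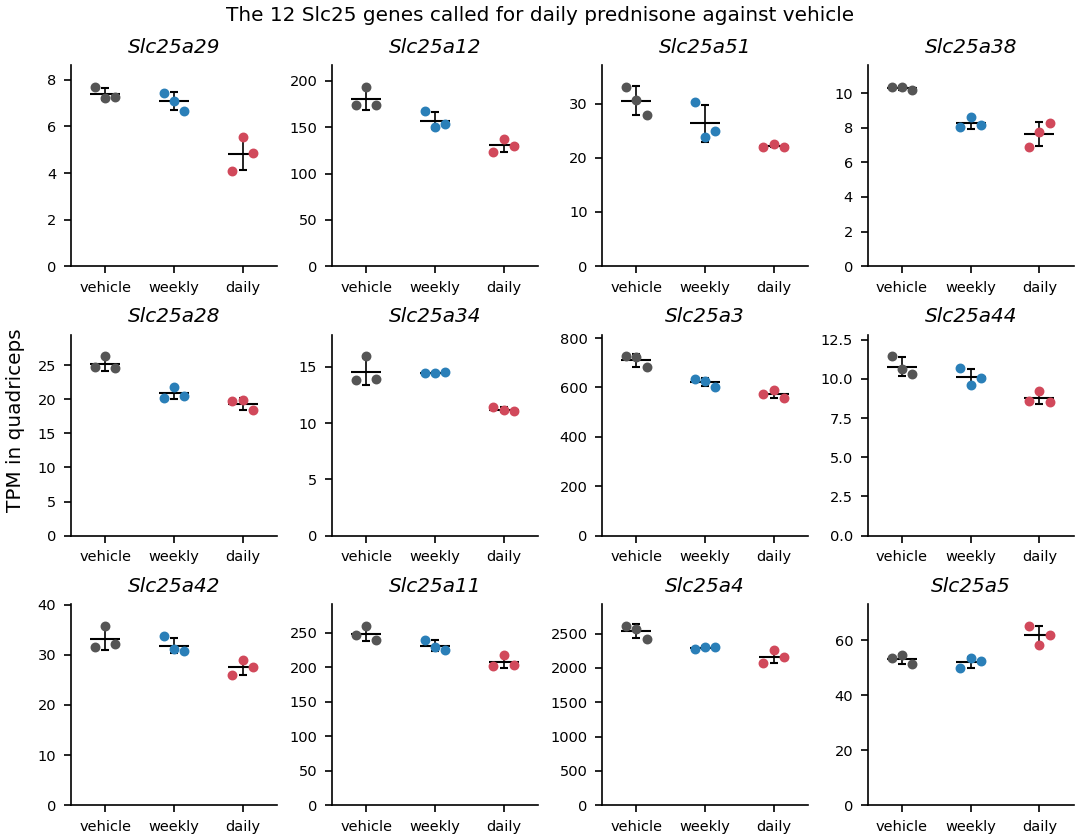
TPM of the 12 members called for daily prednisone against vehicle in quadriceps, by regimen, with a dot per library and bars for mean and SD of 3 libraries. For 11 genes every daily library lies below every vehicle library, and for Slc25a5 every daily library lies above.

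The calls of Slc25a3, Slc25a12, Slc25a28, Slc25a29 and Slc25a38 held when any 1 of the 9 muscle libraries was left out. Those of Slc25a4, Slc25a11, Slc25a34, Slc25a42, Slc25a44, Slc25a5 and Slc25a51 did not, and 5 members were called without daily library 3. Among members not called, Slc25a25, an ATP-Mg/phosphate carrier, had the lowest value. It had 14.7, 44.1 and 27.7 TPM after vehicle, 6.40, 22.2 and 14.4 TPM after weekly, and 7.31, 18.8 and 15.4 TPM after daily prednisone. Its groups overlapped, and in each of them library 1 was the lowest and library 2 the highest.

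Weekly prednisone against vehicle gave 0 called members in muscle, where 0.049% of genes were called. By limma 8 of the 36 had an unadjusted p under 0.05, and the median of the members was -0.07, the same as that of all genes to 2 decimals. The share of all genes under that unadjusted threshold is not given here, so the 8 are not read against the 0.049%. The smallest adjusted p were those of Slc25a28 (-0.26 ± 0.06, limma adjusted p = 0.151), Slc25a3 (-0.19 ± 0.04, 0.154) and Slc25a33 (0.33 ± 0.08, 0.156). Slc25a33, which imports pyrimidine nucleotides, had 7.51, 6.53 and 6.49 TPM after vehicle, 8.52, 8.62 and 9.36 TPM after weekly, and 7.09, 6.61 and 7.2 TPM after daily prednisone. Its weekly libraries lay above all others.

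Tested against each other, weekly prednisone gave higher levels than daily for 2 members, Slc25a29 and Slc25a34, where 1.77% of genes were called. Slc25a29 had 7.45, 7.11 and 6.68 TPM after weekly against 4.10, 5.56 and 4.85 TPM after daily prednisone, a difference of 0.48 ± 0.09 (limma adjusted p = 0.0445). Slc25a34 differed by 0.34 ± 0.06 (limma adjusted p = 0.0378). For both genes the weekly and vehicle levels were close, with weekly changes of -0.06 (95% interval -0.27 to 0.16) and -0.01 (-0.15 to 0.14). The call of Slc25a29 missed the threshold without any 1 library except daily library 2, and that of Slc25a34 without any 1 except vehicle libraries 1 and 2, and 0 members were called without the third libraries. The weekly and daily comparisons with vehicle share their vehicle libraries.

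**Figure D4:**
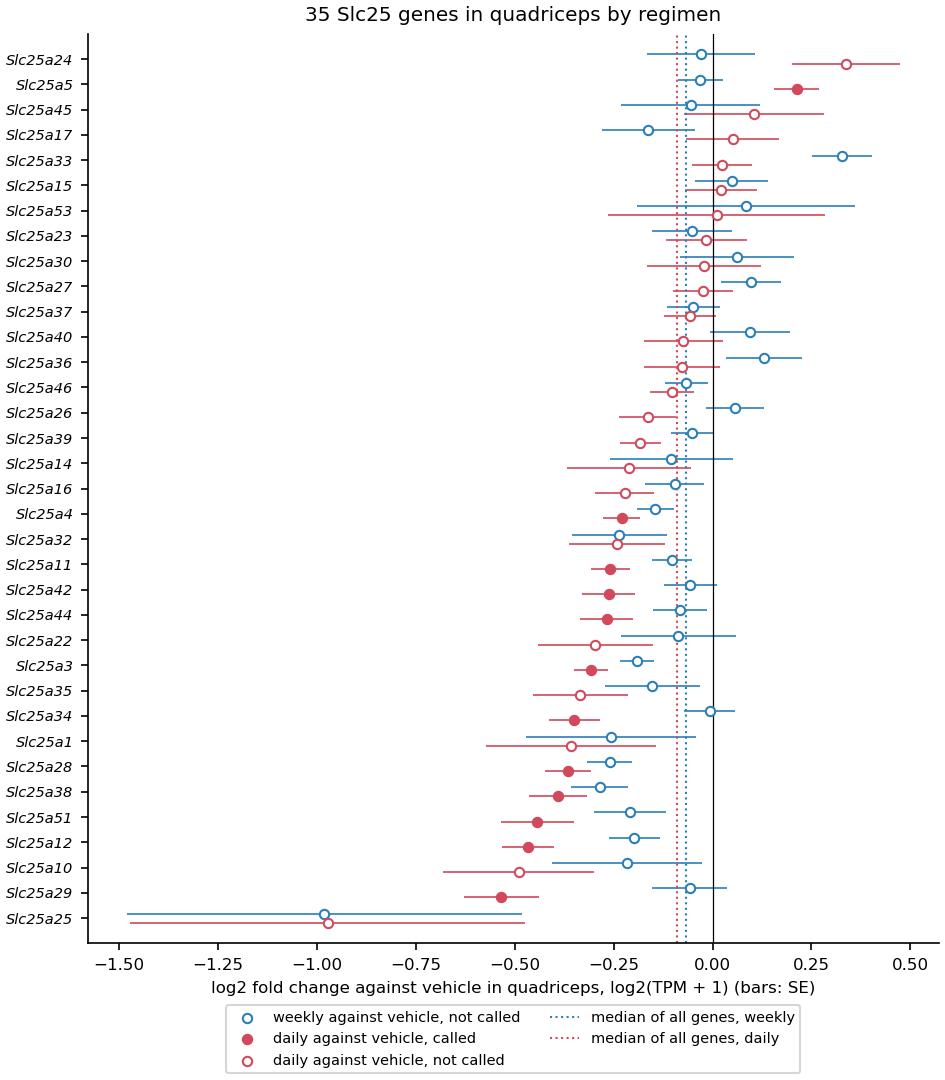
Log2 fold change against vehicle, on log2(TPM + 1), of 35 members tested in quadriceps for weekly (blue) and daily (red) prednisone, with bars for the SE from limma, filled points for called members and dotted lines for the medians of all genes. The 11 called decreases after daily prednisone lie from -0.53 to -0.23 and Slc25a5 lies at 0.21, and with TMM scaling 24 rather than 29 daily values of the 36 tested members are negative.

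Family genes under other symbols were not called in any comparison of regimens, in muscle or adipose tissue, except Ucp1, lower in adipose tissue after weekly prednisone with TMM scaling (-0.93, limma adjusted p = 0.0479). They were Ucp1, Ucp2 and Ucp3, the uncoupling proteins, and Mtch1 and Mtch2, relatives in the outer membrane. Ucp3, the muscle form, had 121, 171 and 143 TPM after vehicle and 113, 149 and 134 TPM after daily prednisone in muscle. Mtch1 had 64.5, 63.8 and 54.6 TPM after vehicle, 47.3, 49.5 and 49.1 TPM after weekly, and 57.1, 41.4 and 45.3 TPM after daily prednisone, a daily change of -0.35 ± 0.11 (limma adjusted p = 0.067). Ucp1, the uncoupler of brown and beige fat, had 113, 57.0 and 70.0 TPM after vehicle in adipose tissue, 44.5, 45.6 and 45.0 TPM after weekly, and 45.7, 59.6 and 43.0 TPM after daily prednisone. The weekly libraries lay below the vehicle libraries, at -0.76 ± 0.21 (limma adjusted p = 0.0571).

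Some genes of the machinery around the carriers were also lower in muscle after daily prednisone, read here beside the 13.7% called over all genes. Of 20 other transporters of the inner membrane 6 were lower and 0 higher (1 lower with TMM scaling), led by Letm1, a cation exchanger, at -0.43 ± 0.06. Mpc2, a subunit of the pyruvate carrier, had 305, 304 and 278 TPM after vehicle and 233, 253 and 241 TPM after daily prednisone. Of 4 outer membrane channels 2 were lower (1 with TMM scaling), among them Vdac1, the main anion channel, with 544, 569 and 554 TPM after vehicle and 448, 442 and 443 TPM after daily prednisone. Of 16 genes of carrier import 2 were lower (2 with TMM scaling), a count near the 13.7% of all genes. They were Tomm20, a receptor of the outer membrane, at -0.53 ± 0.07 and Timm13, a chaperone that guides carriers between the membranes, at -0.42 ± 0.06. Of 12 genes of mitochondrial content 7 were lower (2 with TMM scaling), led by Mfn2, which fuses mitochondria, at -0.45 ± 0.06. Cs, citrate synthase, had 353, 341 and 338 TPM after vehicle and 296, 299 and 292 TPM after daily prednisone. These lists share the libraries of the members, and the carriers' own share in a general change of mitochondrial transcripts was not tested.

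In adipose tissue weekly prednisone against vehicle gave 1 called member of 38, Slc25a37, higher. That is a smaller share than the 7.43% called among the 14150 genes tested. Slc25a37, mitoferrin 1 (chr14:69241848-69285112, minus strand), had 8.58, 6.85 and 6.80 TPM after vehicle, 12.3, 12.0 and 11.8 TPM after weekly, and 10.3, 9.0 and 9.56 TPM after daily prednisone. Its 3 groups did not overlap, and it rose by 0.63 ± 0.11 after weekly prednisone (SE, n = 3 per group, limma adjusted p = 0.0178). After daily prednisone it stood at 0.34 ± 0.11 (limma adjusted p = 0.375). The weekly call missed the threshold without vehicle library 3 (adjusted p = 0.0734), without weekly library 3 (0.0694) and without the third libraries (0.325), and 2 members were called without vehicle library 1, weekly library 2 or daily library 2. Without the 3 libraries with the most muscle transcripts, which leaves 1 weekly library, the change was 0.66. With a covariate for muscle transcripts it was 0.67 and called (limma adjusted p = 0.00785). That covariate was the mean log2(TPM + 1) of the muscle markers in each adipose library.

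Slc25a37 imports iron for heme and is abundant in red cell precursors. The summed TPM of 7 red cell markers overlapped between the groups, at 9101, 5136 and 6388 after vehicle and 6614, 6592 and 6790 after weekly prednisone, with 0 of the 7 above all vehicle libraries. The sums of 6 stromal markers did not overlap, at 1339, 1288 and 1307 TPM after vehicle and 1990, 1680 and 1796 TPM after weekly prednisone, with 5 of the 6 higher in every weekly library. The 10 macrophage markers summed to 1979 to 2651 TPM and 2557 to 2980 TPM, with 5 of the 10 higher in every weekly library. The 6 endothelial markers summed to 318 to 343 TPM after vehicle and 354 to 444 TPM after weekly prednisone, with 4 of the 6 higher in every weekly library. The 5 mesothelial markers summed to 46.2 to 73.1 TPM and 69.9 to 125 TPM, with 3 of the 5 higher in every weekly library. Of 8 lymphocyte markers 1 was above and 2 were below all vehicle libraries in every weekly library, and of 10 fat cell markers 0 and 1. How many of all genes lay above vehicle in this way was not counted. None of these markers was at 0, and the part of these cells in the rise of Slc25a37 was not tested.

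The difference between the tissues was called for the same gene, from the same adipose libraries, so the 2 calls are not separate support. The weekly change of Slc25a37 in muscle minus that in adipose tissue was -0.68 (limma on each mouse's difference between tissues, adjusted p = 0.0302). It was the only member called of 36 tested, a count near the 2.78% of all genes called. For daily prednisone 0 members differed between tissues, where 0.0511% of genes did and 7 members had an unadjusted p under 0.05. The 7 are not read against that share, which is for adjusted p. The tissue difference missed the threshold with TMM scaling (-0.43, limma adjusted p = 0.141), without any 1 of mice vehicle 2, vehicle 3, weekly 1, weekly 3 and daily 3, and without the third libraries (0.307).

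The other adipose members moved less than their error allowed to be called, and the scaling mattered. The median of the members after weekly prednisone was -0.00 where that of all genes was 0.13, and with TMM scaling these became -0.15 and -0.02. Under TMM scaling the split of 1 higher and 0 lower became 1 and 6, with Slc25a37 still called higher and Slc25a3, Slc25a10, Slc25a11, Slc25a17 and Slc25a23 among those called lower. Slc25a3 had 416, 437 and 435 TPM after vehicle, 408, 372 and 363 TPM after weekly, and 379, 389 and 383 TPM after daily prednisone, a weekly change of -0.17 ± 0.06 (limma adjusted p = 0.0867, with TMM -0.35 and 0.0204). Slc25a40, tied to glutathione import, had 7.81, 6.84 and 7.22 TPM after vehicle and 9.77, 9.14 and 10.2 TPM after weekly prednisone, a change of 0.37 ± 0.10 (limma adjusted p = 0.0513).

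Slc25a12 in adipose tissue had 5.06, 6.13 and 6.18 TPM after vehicle, 7.25, 8.04 and 10.2 TPM after weekly, and 5.51, 5.78 and 6.74 TPM after daily prednisone, a weekly change of 0.48 ± 0.14 (limma adjusted p = 0.066). Its higher weekly values, 8.04 and 10.2 TPM, came from libraries where the 14 muscle markers summed to 1767 and 1294 TPM, against 180 to 295 TPM after vehicle. The first weekly library, at 7.25 TPM, had a muscle sum of 215 TPM. Without the 3 libraries with the most muscle transcripts the weekly change of Slc25a12 was 0.29. With the covariate for muscle transcripts it was 0.42 and not called (limma adjusted p = 0.0933). The part of muscle transcripts in it was not tested further. Slc25a4, the member highest in muscle, had 184, 244 and 222 TPM in the weekly libraries against 229, 232 and 239 TPM after vehicle, and the lowest of these was in the weekly library with the fewest muscle transcripts. With the muscle transcripts as a covariate 5 members were called higher and 3 lower, Slc25a4 among the lower at -0.26 (limma adjusted p = 0.0344). More of all genes were called in that fit than the 7.43% without the covariate, so these counts are not read against that share.

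**Figure D5:**
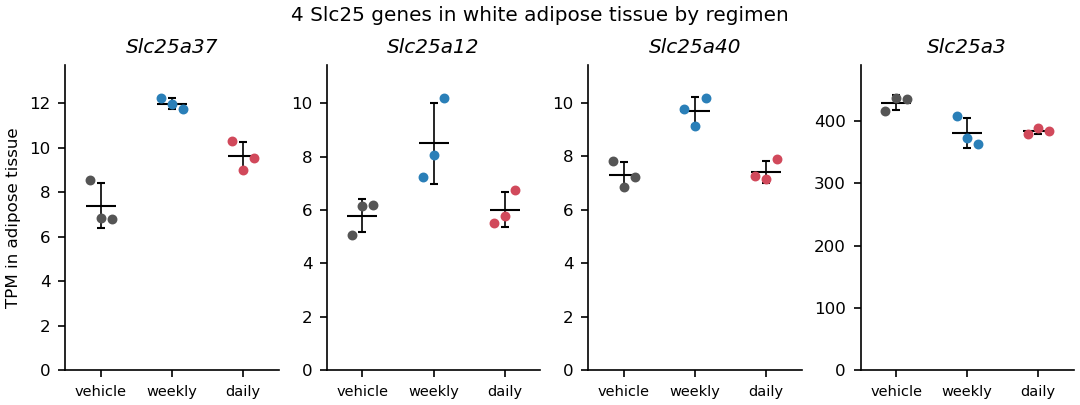
TPM of Slc25a37, Slc25a12, Slc25a40 and Slc25a3 in white adipose tissue by regimen, with a dot per library and bars for mean and SD of 3 libraries. Slc25a37 lies at 6.80 to 8.58 TPM after vehicle and at 11.8 to 12.3 TPM after weekly prednisone, and the other 3 genes were not called.

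Daily prednisone against vehicle in adipose tissue gave 0 called members, where 0.00707% of genes were called and 5 members had an unadjusted p under 0.05 by limma. Slc25a10 had 385, 424 and 401 TPM after vehicle and 387, 338 and 350 TPM after daily prednisone, a change of -0.17 ± 0.07 with a 95% interval of -0.32 to -0.03. Slc25a1 had 378, 394 and 395 TPM after vehicle and 393, 400 and 383 TPM after daily prednisone, and Slc25a5 433, 406 and 424 TPM against 389, 393 and 382 TPM. Of these, the groups of Slc25a1 and Slc25a10 overlapped and those of Slc25a5 did not. Weekly against daily prednisone also gave 0 called members, where 0.311% of genes were called and 6 members had an unadjusted p under 0.05. Neither unadjusted count is read against these shares of all genes, which are for adjusted p. The nearest was Slc25a40 at 0.34 ± 0.10 (limma adjusted p = 0.195).

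Of the lists of mitochondrial genes around the carriers, 1 of 4 outer membrane channels and 1 of 16 import genes fell in adipose tissue after weekly prednisone, beside the 7.43% of all genes called. The count of import genes is near that share. With TMM scaling 1 of the channels and 6 of the import genes were called lower, and the share of all genes in that fit is not given here. Tspo, a protein of the outer membrane that binds cholesterol, had 1020, 1055 and 1024 TPM after vehicle, 545, 818 and 669 TPM after weekly, and 928, 825 and 826 TPM after daily prednisone, a weekly fall of 0.63 ± 0.12 (limma adjusted p = 0.023). Tomm7, a subunit of the import channel, fell by 0.38 ± 0.10 (limma adjusted p = 0.0468).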

How the data were processed

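The authors deposited TPM for 105129 transcripts with their symbols. Per the submitters' processing notes, Trimmomatic, HISAT2, kallisto and mm10 were used, and their roles, versions and annotation are not given in the sources used here. TPM keeps no read totals, so the depth of each library is not known and all errors are those between libraries of a group. Transcripts were summed per symbol, genes reaching 1 TPM in 3 or more libraries of the tissue were kept, and log2(TPM + 1) was fitted per tissue over the 3 regimens with limma 3.58.1 in R 4.3.3 (lmFit, eBayes with trend), with Benjamini-Hochberg adjustment over all genes kept. Log2 fold changes understate those of low genes. Tissues were compared by limma on each mouse's difference, since the labels say both tissues came from each mouse and number the libraries. Numbers do not pair mice across regimens (median residual correlation -0.0304 in muscle and 0.0295 in adipose tissue). Of 229 family transcripts 222 had the same versioned identifier in GENCODE M21. The members and lists were chosen with earlier results of these data known. Named are called members, the 5 most abundant per tissue, at most 6 in each direction between tissues, those at the edge of the filter or with different main transcripts, and at most 4 called genes of each other list. On simulated data limma found 72% of genes changed by 0.5 and 98% of those changed by 1 (log2) for daily prednisone in muscle, and 40% and 91% in adipose tissue, with 100 genes changed by each size and 15 and 10 false calls in all. For the tissue difference of the weekly change it found 14% and 70%, with 10 false calls. Values of 1 member are not reported here, and it is counted in the totals but not plotted. Alternatives were TMM scaling (own code, unweighted), other pseudocounts and filters, omission of mitochondrial genome transcripts, libraries left out, a replicate block, other samples in the fit and a covariate for muscle transcripts.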

Additional observations from a re-analysis of the deposited data

Results flagged for a closer look

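Slc25a37 was picked out because its weekly change differed between the tissues by a test of the difference itself. It was 1 of 36 members tested, a count near the 2.78% of all genes called, and the test shares the adipose libraries of its weekly call. The weekly change in muscle minus that in adipose tissue was -0.68 on the log2 scale (limma on each mouse's difference between tissues, adjusted p = 0.0302), with -0.05 in muscle and 0.63 in adipose tissue. All 3 weekly adipose libraries were above all 3 vehicle libraries, while in muscle the groups overlapped (6.91 to 7.47 and 6.48 to 7.2 TPM). The difference was not called with TMM scaling (-0.43, limma adjusted p = 0.141), with a replicate block (0.0546), with no filter (0.0514), without the mice with the most muscle transcripts in adipose tissue (0.0907) or without the third libraries (0.307).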

How the results depend on the processing

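With 1 library left out, 5 to 13 members were called for daily against vehicle in muscle, 0 to 2 for weekly against daily, 0 to 2 for weekly against vehicle in adipose tissue, 32 to 33 between tissues, and 0 to 1 for the tissue difference of the weekly change. Without the third libraries these regimen counts were 0, 0, 0 and, for the tissue difference, 0. With TMM scaling they were 7, 1, 7 and 0. For weekly against daily in muscle, 0 were called with no filter, with only the groups compared and with the replicate block, and 1 with both tissues in 1 fit. For weekly against vehicle in adipose tissue, 2 were called without mitochondrial genome transcripts, 2 at a pseudocount of 0.1, 9 with both tissues in 1 fit, 3 without the libraries rich in muscle transcripts and 8 with the covariate. For weekly against daily there, 1 was called with both tissues in 1 fit and 3 with the covariate, against 0. The tissue difference of the weekly change gave 0 with no filter, with the replicate block and without the mice rich in muscle transcripts, and 2 without pairing the tissues of a mouse, where the daily difference gave 1. With the replicate block, 10 members were called for daily against vehicle in muscle. The libraries share only a number across regimens, and the block changed no count of the other comparisons by over 1.5 times. Between tissues TMM scaling reversed Slc25a16 (0.33), Slc25a28 (0.45), Slc25a32 (0.16), Slc25a33 (0.45), Slc25a46 (0.44) and Slc25a51 (0.080). The share of all genes called under these alternatives is not given here, so the counts are not read against the shares given above. The cause of these changes was not tested. With 3 mice per group and no depth, changes near 0.5 on the log2 scale were found in part only, so a member that was not called may still differ.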
